A study of Mus musculus with 6 samples.

Results

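The S100 genes encode small calcium-binding proteins, and 10 of them were followed through RNA from the enamel organ of mice with and without the calcium sensors STIM1 and STIM2. The 10 were picked by symbol out of 46603 genes in the count tables, with earlier results of these data known. They were S100a1, S100a4, S100a6, S100a8, S100a9, S100a10, S100a11, S100a13, S100a14 and S100a16. S100a8 and S100a9, which neutrophils carry in large amounts, are described apart from the 8 members of epithelial or wide expression. The tissue was primary enamel organ cells from lower incisors of C57BL/6 mice. The DKO group, with the genotype Stim1/2 Knock out, held 3 libraries (DKO 1, DKO 3 and DKO 4), and the Wild Type group (WT) held 3 libraries (WT 1, WT 2 and WT 3). The sources used here state neither the ages, the alleles, the cells in which the genes were deleted nor the number of animals. The labels do not say that the libraries of a group came from separate animals, so p-values measure the spread between these samples.

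S100 proteins carry a pair of EF-hand calcium-binding loops and mostly work as dimers that change shape when calcium binds and then grip a target protein, so they sit downstream of a rise in cytosolic calcium. S100A10 is an exception, since its loops no longer bind calcium and it stays in its active shape. STIM1 and STIM2 sense the calcium level of the endoplasmic reticulum and, when that store empties, gate the ORAI calcium channels at the cell surface. The enamel organ is the dental epithelium that holds the ameloblasts, the cells that secrete and mature enamel. Most S100 genes lie in a cluster that they share with other genes of surface epithelia.

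All 10 members lie on mouse chromosome 3 (GRCm38, GENCODE vM21, 1-based positions). From the start of the cluster they run S100a1 (90511034 to 90514392, minus strand), S100a13 (90514435 to 90524581, plus), S100a14 (90526856 to 90528837, plus), S100a16 (90537254 to 90543151, plus), S100a4 (90603771 to 90606045, plus), S100a6 (90612882 to 90624181, plus), S100a8 (90668978 to 90670035, plus) and S100a9 (90692632 to 90695721, minus). S100a11 (93520488 to 93526287, plus) and S100a10 (93555080 to 93564643, plus) stand farther along the chromosome.

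Promoter windows of 300 bases from RefSeq (GRCm38.p6), read 5′ to 3′ on the gene's strand, matched 8 of the 10 members. The windows of S100a8 (chr3:90668821-90669120, plus strand) and S100a9 (chr3:90695672-90695971, minus strand) are shown because these genes varied together across the libraries, with TATAAA and TTGCNNAA matches in capitals:
S100a8: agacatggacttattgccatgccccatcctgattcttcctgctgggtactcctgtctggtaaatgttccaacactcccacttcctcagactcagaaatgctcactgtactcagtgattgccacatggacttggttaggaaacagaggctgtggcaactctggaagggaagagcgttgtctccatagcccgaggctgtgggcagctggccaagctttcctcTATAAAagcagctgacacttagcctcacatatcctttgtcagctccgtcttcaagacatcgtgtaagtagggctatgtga
S100a9: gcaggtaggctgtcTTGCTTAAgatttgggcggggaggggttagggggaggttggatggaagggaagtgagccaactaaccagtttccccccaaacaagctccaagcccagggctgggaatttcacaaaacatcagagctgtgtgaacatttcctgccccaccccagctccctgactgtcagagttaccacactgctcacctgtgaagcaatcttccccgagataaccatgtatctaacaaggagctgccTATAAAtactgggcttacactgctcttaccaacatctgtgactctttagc
Counting from +1 at RefSeq's start, which for S100a8 lies 93 bases inside the GENCODE gene given above, TATAAA begins at -30 in the S100a8 window and at +1 in the S100a9 window. TTGCNNAA, the letters of a C/EBP site, begins at -236 in the S100a9 window and was not found in the S100a8 window. On either strand, TATAAA stood in 13.6% and TTGCNNAA in 10.8% of all 32851 promoter windows. The start sites of S100a1 and S100a13 face away from each other, and their windows share 204 bases. The ratio of this pair lay between 5.10 and 6.72 in all libraries, as given further on, and the part of the shared bases in it was not tested. For that ratio the S100a13 window (chr3:90514185-90514484, plus strand) is shown, with the shared bases in capitals:
S100a13: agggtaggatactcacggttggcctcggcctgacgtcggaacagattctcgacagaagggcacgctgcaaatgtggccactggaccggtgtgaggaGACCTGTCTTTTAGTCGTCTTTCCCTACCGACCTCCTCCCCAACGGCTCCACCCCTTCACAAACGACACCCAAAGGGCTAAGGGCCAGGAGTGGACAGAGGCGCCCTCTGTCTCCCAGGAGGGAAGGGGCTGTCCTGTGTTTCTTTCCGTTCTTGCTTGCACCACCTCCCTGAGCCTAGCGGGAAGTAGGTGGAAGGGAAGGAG
TGANTCA, the letters of an AP-1 site, is shown in capitals in the window of S100a11 (chr3:93520246-93520545, plus strand), the member of highest level:
S100a11: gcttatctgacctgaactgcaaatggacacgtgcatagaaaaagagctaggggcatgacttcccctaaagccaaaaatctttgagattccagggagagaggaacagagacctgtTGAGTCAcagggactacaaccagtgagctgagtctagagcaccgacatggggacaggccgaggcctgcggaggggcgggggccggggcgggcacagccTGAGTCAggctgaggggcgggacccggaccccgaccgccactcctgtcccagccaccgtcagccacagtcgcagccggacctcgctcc
It begins at -136 and at -38, against a match in 7.81% of all windows. GGAAA, the core that NFAT factors read, was in the windows of 6 of the 8 members, beside 61.3% of all windows. These matches are letters in a window and were not tested for binding.

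Total counts lay between 18609759 and 21196538 in DKO libraries and between 21127654 and 22829411 in WT libraries. Stim1 had 107.3, 143.4 and 124.7 TMM-scaled counts per 1e+06 counts (CPM) in DKO 1, DKO 3 and DKO 4, against 413.5, 491.6 and 362.3 CPM in WT 1, WT 2 and WT 3. Stim2 had 105.1, 136.2 and 125.5 CPM in the DKO libraries, against 229.3, 309.8 and 245.3 CPM in the WT libraries. Both target genes fell in DKO, Stim1 by 1.75 ± 0.15 on the log2 scale (SE, edgeR adjusted p 0.00553) and Stim2 by 1.10 ± 0.14 (SE, edgeR adjusted p 0.0180). The Stim2 call was lost under some alternatives, with an adjusted p of up to 0.126. Ambn and Amelx, which encode the enamel matrix proteins ameloblastin and amelogenin, were the leading ameloblast markers, with Ambn at 62376, 90060 and 67626 CPM in DKO and at 37564, 66911 and 49263 CPM in WT. Xist, expressed from the inactive X, was at 488 CPM in DKO 1, 810 CPM in WT 1 and 913 CPM in WT 2, and at 1.22 CPM or less in the other libraries, so each group held both kinds.

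S100a11 and S100a6 were the most abundant members, and the group means of DKO and WT put the members in the same order except within the neighbouring pairs S100a1 and S100a10, S100a13 and S100a9, and S100a8 and S100a4. Levels between genes are compared as deposited FPKM (fragments scaled to transcript length and to the library's fragments). Over all 6 libraries the mean FPKM was 862 for S100a11, 718 for S100a6, 267 for S100a16, 217 for S100a1, 211 for S100a10, 81.2 for S100a14, 36.1 for S100a13, 26.1 for S100a9, 15.6 for S100a8 and 13.5 for S100a4. S100a11, S100a6 and S100a16 together took 72.6% to 75.2% of the members' summed FPKM in the DKO libraries and 72.2% to 79.3% in the WT libraries. In the DKO libraries the neighbours S100a11 and S100a6, S100a6 and S100a16, S100a10 and S100a14, and S100a13 and S100a9 did not overlap. In the WT libraries the pairs without overlap were S100a6 and S100a16, S100a10 and S100a14, and S100a14 and S100a13. The other neighbours in the order overlapped within their group.

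**Figure D1:**
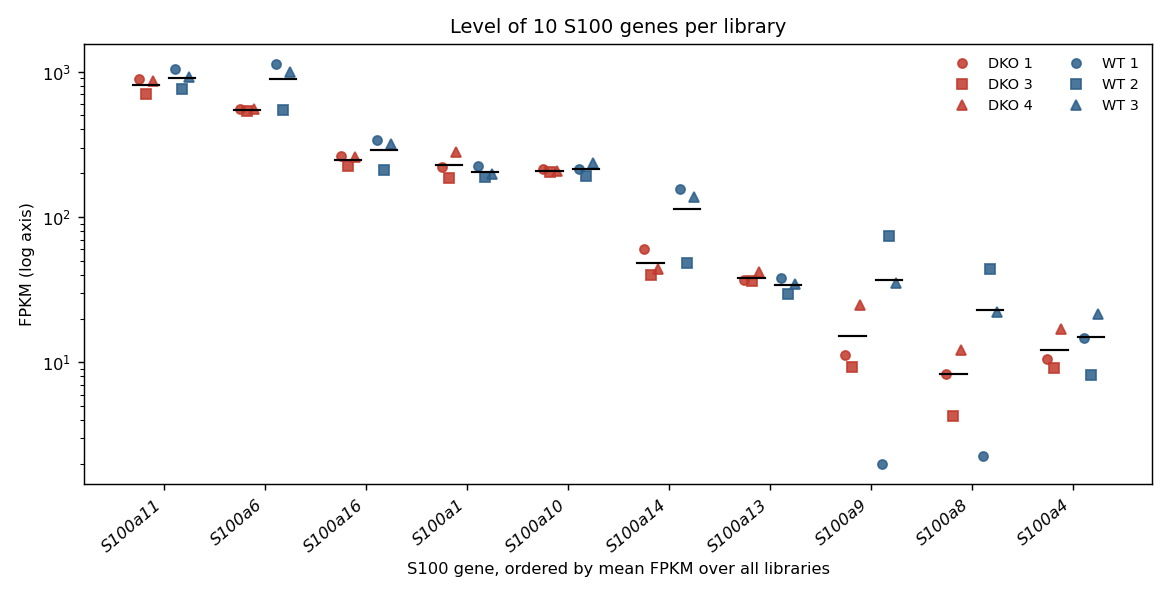
Deposited FPKM on a log axis for each of the 10 S100 genes, ordered by their mean over all libraries, with DKO libraries in red left of WT libraries in blue and a bar at each group's mean. S100a9 and S100a8 spread most widely, with the WT libraries running from 1.99 to 73.9 FPKM for S100a9.

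None of the 9 members that passed the filter on low counts changed between DKO and WT at an edgeR adjusted p under 0.05, where 1.04% of the 14721 tested genes were called. At an unadjusted p under 0.05 there were 2, S100a14 and S100a6, both lower in DKO, beside 18.0% of all tested genes. The fitted log2 fold change was above 0 for 2 members and below 0 for 7, with a median of -0.21, beside a median of -0.0068 over all tested genes. DESeq2 called 1 member, S100a6, against 5.30% of its 15416 tested genes. Limma on log2(FPKM + 1) called none of the 10, against 0.576% of 13357 genes. Leaving out WT 2 changed this, since edgeR then called S100a14 and S100a6 lower in DKO, beside 2.23% of 15046 genes. For both genes WT 2 was the WT library nearest to the DKO values, so leaving it out widens the difference by itself. With any other single library left out, edgeR called no member.

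**Figure D2:**
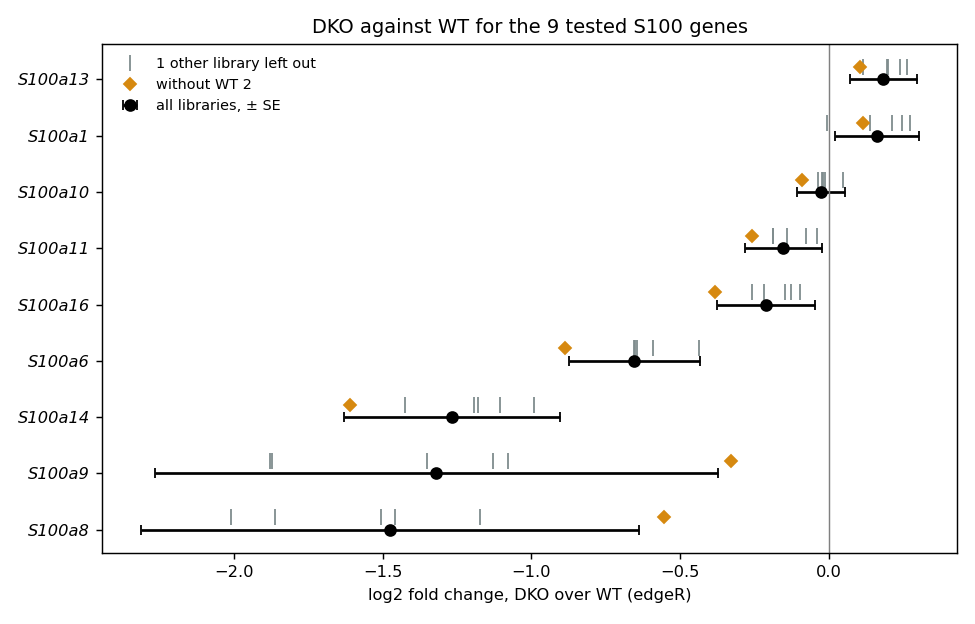
Fitted log2 fold change of DKO over WT for the 9 tested S100 genes (black points, ± SE, edgeR), with the value after leaving out WT 2 (orange diamonds) or any other single library (grey ticks). S100a14 and S100a6 lie farther below 0 without WT 2, at -1.61 and -0.89, and S100a8 and S100a9 lie closer to 0, at -0.55 and -0.33.

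S100a14, an S100 protein of surface epithelia, had the lowest p of the members. It stood at 51.6, 38.1 and 37.2 CPM in DKO 1, DKO 3 and DKO 4, against 136, 46.3 and 122 CPM in WT 1, WT 2 and WT 3. WT 1 and WT 3 were high, while WT 2 lay within the DKO range, so the groups overlapped. The means were 42.3 ± 8.04 CPM in DKO and 102 ± 48.4 CPM in WT (SD, n = 3 each), a log2 fold change of -1.27 ± 0.36 (SE) with an edgeR adjusted p of 0.145. Without WT 2 it fell in DKO by 1.61 ± 0.15 on the log2 scale with an adjusted p of 0.00509. With any other single library left out, the edgeR adjusted p of S100a14 was 0.243 to 0.351.

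S100a6, known as calcyclin, binds the ubiquitin-ligase adaptor CACYBP and several annexins. S100a6 had 241.3, 236.7 and 241.2 CPM in DKO 1, DKO 3 and DKO 4, against 480, 245 and 406 CPM in WT 1, WT 2 and WT 3. It was the only one of the 9 tested members with every DKO library below every WT library, a pattern of 11.8% of all tested genes, and the gap between WT 2 and the highest DKO library was small. The 3 DKO values were nearly equal, at 239.7 ± 2.62 CPM, against 377.0 ± 121 CPM in WT (SD, n = 3 each). The log2 fold change was -0.65 ± 0.22 with an edgeR adjusted p of 0.189, and DESeq2 gave an adjusted p of 0.0353. Without WT 2, S100a6 fell in DKO by 0.89 ± 0.10 with an edgeR adjusted p of 0.0128. With any other single library left out, its edgeR adjusted p was 0.323 to 0.384.

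Epithelial markers are given beside S100a14 and S100a6 because squamous epithelium also carries S100 genes. The 14 oral keratinocyte markers, 9 of them tested, summed to 146, 100.3 and 123 CPM in DKO 1, DKO 3 and DKO 4, against 488, 286 and 450 CPM in WT 1, WT 2 and WT 3, with no overlap. Most of each sum was Krt6a, so the lack of overlap is mainly that of 1 gene. Every DKO library lay below every WT library in 3 of the 9 tested markers, beside 11.8% of all tested genes. The other tested markers overlapped between the groups. Krt6a, a keratin of stressed and oral epithelium, was at 109, 60.6 and 85.6 CPM in DKO, against 418, 230.1 and 336 CPM in WT, and it fell in DKO by 1.95 ± 0.27 with an edgeR adjusted p of 0.0216. This call was lost under 5 of 16 alternatives, among them leaving out DKO 3, DKO 4 or WT 3, with adjusted p of up to 0.183. It was the 1 marker of this list that edgeR called, beside 1.04% of all tested genes. DESeq2 called 5, beside 5.30%, and edgeR without WT 2 called 4, beside 2.23%. Krt76, the other leading marker of that list, had a log2 fold change of 0.30 and was not called. The 7 dental epithelium markers summed to 7223, 7457 and 7270.4 CPM in DKO, against 10765, 9933 and 9307 CPM in WT, and all 7 had a fitted fold change below 0. Krt5 and Krt14, the keratins of basal epithelial cells, had log2 fold changes of -0.54 and -0.47 with edgeR adjusted p of 0.108 and 0.147, which did not pass. DESeq2 called both, with adjusted p of 7.5e-06 and 0.000649, and for both every DKO library lay below every WT library. The part of these markers in the S100a14 and S100a6 values was not tested, and in bulk RNA fewer cells of a type and less RNA per cell cannot be told apart.

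The 3 tested genes with the profile most like S100a14 over the 6 libraries were Syn1, Ncoa4 and Slc22a4. Likeness was the root-mean-square difference of log2(CPM + 0.5) after centring each gene on its mean, and it was 0.099, 0.12 and 0.17. Ncoa4, the receptor that brings ferritin to the lysosome, had 151, 121 and 128 CPM in DKO 1, DKO 3 and DKO 4, against 513, 151.0 and 445 CPM in WT 1, WT 2 and WT 3. Slc22a4, a transporter of ergothioneine, had 6.27, 4.89 and 6.26 CPM in DKO, against 21.9, 6.54 and 15.6 CPM in WT. Syn1, known as a synaptic vesicle protein, ran from 3.10 to 4.16 CPM in DKO and from 4.36 to 14.5 CPM in WT. As follows from their choice by profile, in each of them WT 1 and WT 3 were high and WT 2 was close to the DKO libraries. None of these 3 genes was called.

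**Figure D3:**
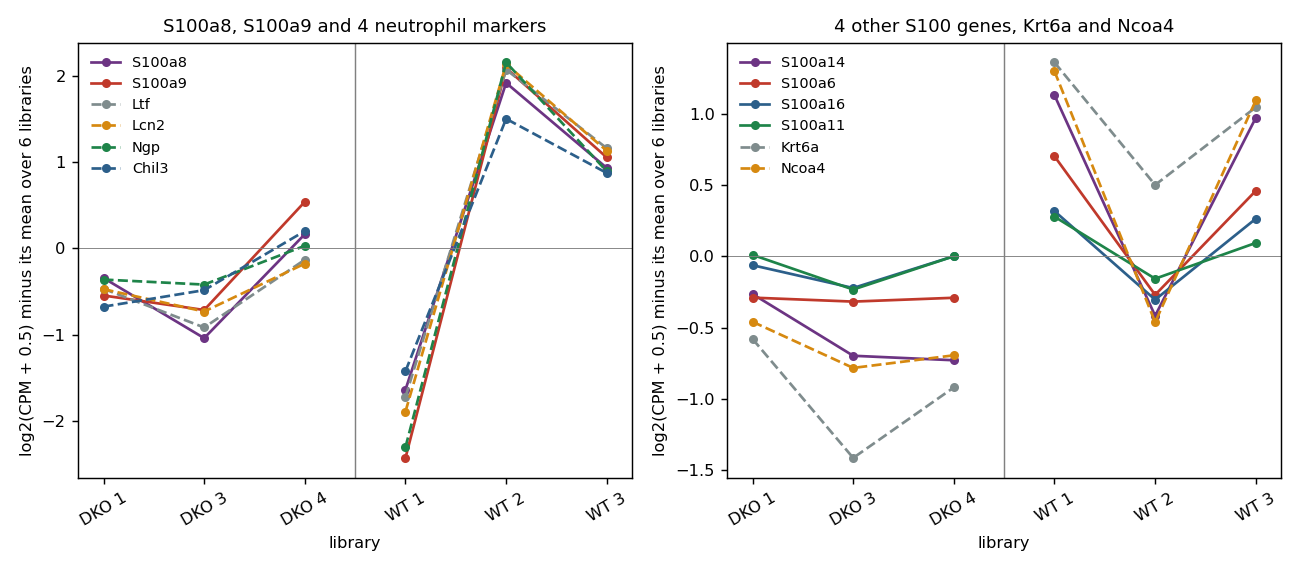
Log2(CPM + 0.5) of each library minus the gene's mean over all 6 libraries, for S100a8, S100a9 and 4 neutrophil markers (left) and for 4 other S100 genes with Krt6a and Ncoa4 (right), DKO libraries left of the vertical line and WT libraries right of it. The 4 markers and Ncoa4 were taken for their nearness in profile to S100a8, S100a9 or S100a14. The left genes are lowest in WT 1 and highest in WT 2, while S100a14, S100a6, S100a16 and S100a11 are higher in WT 1 and WT 3 than in WT 2.

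S100a11 and S100a16 had small fold changes and were not called. S100a11, known as calgizzarin, which binds annexin A1 and takes part in cornified envelopes, had 311, 262 and 309 CPM in DKO 1, DKO 3 and DKO 4, against 374, 277 and 329 CPM in WT 1, WT 2 and WT 3. Its log2 fold change was -0.15 ± 0.13 with an edgeR adjusted p of 0.585. S100a16, a widely expressed S100 gene, had 246, 220.5 and 258 CPM in DKO, against 321, 208 and 309 CPM in WT. WT 2 was the lowest of all 6 libraries for S100a16 and lay inside the DKO range for S100a11. The log2 fold change of S100a16 was -0.21 ± 0.16 with an adjusted p of 0.550. Between these 2 genes the profile difference was 0.098, the smallest among pairs of the 9 tested members, although S100a16 ranked only 273 among the genes nearest to S100a11. As a description over 6 shared libraries, S100a16 was also 0.24 from S100a6.

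**Figure D4:**
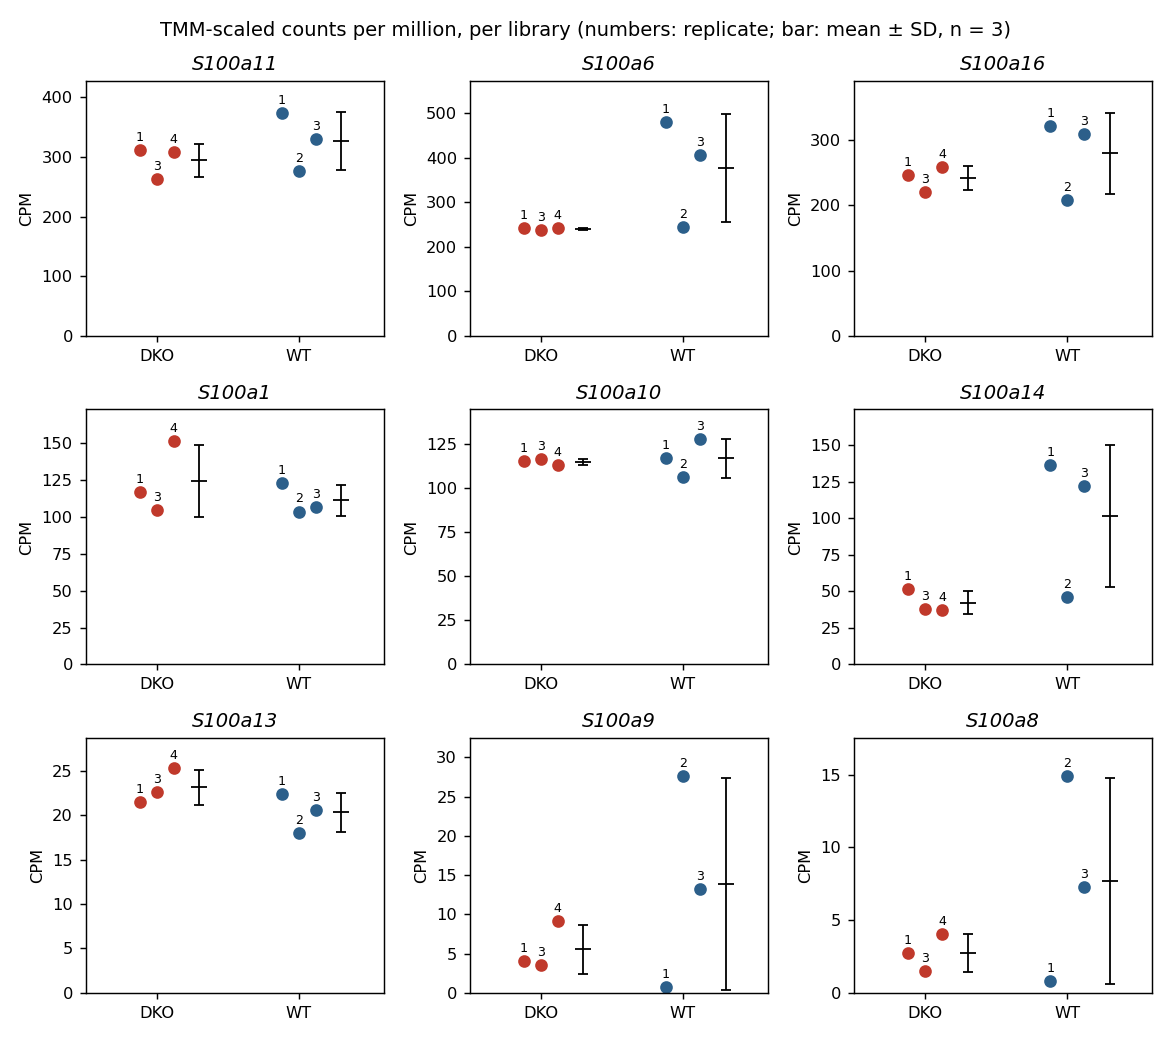
TMM-scaled CPM per library for the 9 S100 genes in the count test, DKO in red left of WT in blue, with replicate numbers above the points and the mean ± SD beside each group (n = 3). S100a6 is the panel in which all DKO points lie below all WT points, and S100a8 and S100a9 show the widest WT spread.

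S100a8 and S100a9, whose proteins pair as calprotectin and fill the cytosol of neutrophils, were low and varied more between WT libraries than between the groups. S100a8 had 2.71, 1.48 and 4.07 CPM in DKO 1, DKO 3 and DKO 4, against 0.806, 14.9 and 7.28 CPM in WT 1, WT 2 and WT 3. S100a9 had 4.01, 3.52 and 9.09 CPM in DKO, against 0.721, 27.6 and 13.2 CPM in WT. Both were lowest in WT 1 and highest in WT 2, with the DKO libraries in between, so the groups overlapped. The highest WT library was 18.5 times the lowest for S100a8 and 38.3 times for S100a9, while the DKO libraries differed by 2.75 and 2.59 times. These values rest on 19 to 308 counts a library for S100a8 and 17 to 570 counts for S100a9. The log2 fold changes were -1.47 ± 0.84 for S100a8 and -1.32 ± 0.95 for S100a9, with edgeR adjusted p of 0.401 and 0.513. Leaving out 1 WT library moved them widely: without WT 2 they were -0.55 and -0.33, and without WT 1 they were -2.01 and -1.88. Limma on log2(FPKM + 1) gave -0.80 and -0.44.

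The ratio of S100a9 to S100a8 in FPKM was 1.35, 2.196 and 2.03 in DKO 1, DKO 3 and DKO 4, against 0.871, 1.67 and 1.59 in WT 1, WT 2 and WT 3. The tested genes nearest in profile to S100a8 were Ltf (0.18), Lcn2 (0.25) and Chil3 (0.33), and those nearest to S100a9 were Ngp (0.27), Lcn2 (0.37) and S100a8 itself (0.40). Nearness was taken over these same 6 libraries, so a similar order of libraries follows from the choice of genes. Ltf, Lcn2 and Ngp had the same order as S100a8 and S100a9, whereas Chil3 had DKO 1 (1.05 CPM) below DKO 3 (1.27 CPM). Ltf, Lcn2 and Ngp encode the granule proteins lactoferrin, lipocalin 2 and neutrophilic granule protein. Ltf had 1.505, 0.968 and 2.03 CPM in DKO, against 0.339, 11.2 and 5.71 CPM in WT. Ngp had 2.41, 2.29 and 3.32 CPM in DKO, against 0.255, 16.2 and 6.45 CPM in WT.

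The 20 neutrophil markers summed to 39.8, 34.4 and 47.8 CPM in DKO 1, DKO 3 and DKO 4, against 19.9, 82.9 and 69.0 CPM in WT 1, WT 2 and WT 3. S100a8 and S100a9 were left off that list. Of its 12 tested genes, 11 had a fitted fold change below 0, none was called by edgeR or DESeq2, and none had an unadjusted edgeR p under 0.05. Ly6g, the defining neutrophil surface marker, was at 0 counts in DKO 1, DKO 3 and WT 1 and at most 0.388 CPM elsewhere, and Stfa2 was at 0 in every library. Mmp9, the marker of highest level in the list and a gene of other cells too, had a log2 fold change of 0.18 and was not called. Of the sums above, Mmp9 made up 27.2, 22.7 and 27.2 CPM in DKO 1, DKO 3 and DKO 4, against 16.5, 18.7 and 33.0 CPM in WT 1, WT 2 and WT 3. It was thus most of the sum in every DKO library and in WT 1, and its highest library was WT 3. The part of neutrophil content in the S100a8 and S100a9 values was not tested.

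S100a1 and S100a13, the head-to-head pair, overlapped between the groups and were not called. S100a1, best known as a regulator of calcium handling in muscle, had 117, 105 and 152 CPM in DKO 1, DKO 3 and DKO 4, against 123, 104 and 107 CPM in WT 1, WT 2 and WT 3. DKO 4 was the high library and the groups overlapped, with a log2 fold change of 0.16 ± 0.14 and an edgeR adjusted p of 0.591. S100a13, which takes part in the release of FGF1 from cells, had 21.5, 22.6 and 25.2 CPM in DKO, against 22.4, 18.0 and 20.6 CPM in WT. Its log2 fold change was 0.18 ± 0.11 with an adjusted p of 0.444. The ratio of S100a1 to S100a13 in FPKM was 6.00, 5.10 and 6.72 in DKO, against 5.97, 6.40 and 5.73 in WT. Their profiles differed by 0.12, the second smallest difference among the members, although S100a13 ranked only 190 among the genes nearest to S100a1.

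S100a10, which binds annexin A2 in a complex at the plasma membrane, had the smallest fold change of the 9 tested members. It stood at 115, 117 and 113 CPM in DKO 1, DKO 3 and DKO 4, against 117, 106 and 128 CPM in WT 1, WT 2 and WT 3. The log2 fold change was -0.03 ± 0.08 with an edgeR adjusted p of 0.900. Its partner Anxa2 had 378, 369 and 347 CPM in DKO, against 466, 434 and 469 CPM in WT, a log2 fold change of -0.32 ± 0.09. This did not pass in edgeR, with an adjusted p of 0.126, while DESeq2 called it lower in DKO with an adjusted p of 0.00631. Ahnak, a giant scaffold that docks on the S100A10 and annexin A2 complex, had 167, 177 and 198 CPM in DKO, against 353, 266 and 405 CPM in WT. For Anxa2 and Ahnak every DKO library lay below every WT library, a pattern of 11.8% of all tested genes. Ahnak fell in DKO by 0.92 ± 0.16 with an edgeR adjusted p of 0.0455, and this call was lost under 9 of 16 alternatives, among them leaving out any 1 library but WT 2, with adjusted p between 8.4e-07 and 0.226.

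Ahnak was the 1 gene called among the 16 tested of 18 partners and receptors of S100 proteins, beside 1.04% of all tested genes. Of these 16, 8 had a fitted fold change above 0 and 8 below 0, and the median was 0.0031, beside -0.0068 over all tested genes. In 3 of the 16 (Ahnak, Anxa2 and Anxa7) every DKO library lay below every WT library, beside 11.8% of all tested genes. In 2 (Anxa5 and Anxa6) every DKO library lay above every WT library, a pattern whose share over all tested genes was not computed. Cacybp, the partner named for calcyclin, had 42.3, 33.9 and 39.3 CPM in DKO 1, DKO 3 and DKO 4, against 44.2, 44.3 and 38.7 CPM in WT 1, WT 2 and WT 3. Its groups overlapped, and the log2 fold change was -0.14 ± 0.10 with an edgeR adjusted p of 0.526. Ager, the receptor RAGE that extracellular S100 proteins bind, and Il1a did not pass the filter on low counts.

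S100a4, a cytoskeletal regulator of motile cells that binds non-muscle myosin, was nearly absent from the count tables although the FPKM tables listed it. It had 2, 1 and 3 counts in DKO 1, DKO 3 and DKO 4, against 4, 0 and 6 counts in WT 1, WT 2 and WT 3, and did not pass the filter. In FPKM it stood at 10.6, 9.19 and 16.9 in DKO, against 14.7, 8.20 and 21.7 in WT. S100a4 had at most 0.277 counts per FPKM, whereas the other 9 members had 6.20 to 22.4. In GENCODE vM21, 302 of its 584 exonic bases (51.7%) are shared with Gm42674, a gene on the same strand at 90601904 to 90605885 that had 0 counts in every library and at most 0.154 FPKM. The part of this overlap in the low counts was not tested. The groups overlapped at 12.2 ± 4.13 FPKM in DKO and 14.9 ± 6.74 FPKM in WT (SD, n = 3 each), and limma gave a log2 fold change of -0.21 ± 0.35 on log2(FPKM + 1) with an adjusted p of 0.813.

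Macrophages and mesenchyme also carry S100a4 and S100a6. The 10 macrophage markers, led by C1qb and Csf1r, summed to 184, 145 and 198 CPM in DKO 1, DKO 3 and DKO 4, against 124, 96.3 and 138 CPM in WT 1, WT 2 and WT 3. All 10 had a fitted fold change above 0, with none called by edgeR, 6 at an unadjusted p under 0.05 (18.0% of all tested genes) and 3 called by DESeq2 (5.30% of its genes). The 10 mesenchyme markers, led by Col1a1 and Col1a2, summed to 13656, 10778 and 11727 CPM in DKO, against 10478, 6956 and 11579 CPM in WT, with none called by either tool and none at an unadjusted p under 0.05. Their part in the S100 values was not tested.

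The rest of the family was absent or at low level. Of the 7 other S100 genes in the files, S100a2, S100a5 and S100z had 0 counts in all libraries, which allows a level of up to 0.127 to 0.160 CPM by the 3 counts that a count of 0 allows. S100a3 had 1 to 6 counts a library and did not pass the filter. S100g, the calbindin-D9k known for intestinal calcium uptake, had 2.11, 0.917 and 2.62 CPM in DKO 1, DKO 3 and DKO 4, against 1.48, 1.94 and 2.14 CPM in WT 1, WT 2 and WT 3. Its log2 fold change was 0.02 ± 0.39. In FPKM, S100g stood at 6.63, 2.55 and 8.07 in DKO, against 4.27, 5.90 and 6.36 in WT. These values overlapped those of S100a8, at 8.35, 4.25 and 12.3 FPKM in DKO, against 2.29, 44.2 and 22.3 FPKM in WT. S100b, the S100 gene of glia and Schwann cells, had 0.401, 0.713 and 1.23 CPM in DKO, against 0.170, 0.145 and 1.18 CPM in WT, a log2 fold change of 0.63 ± 0.81. S100a7a had at most 0.785 CPM and a log2 fold change of 0.04 ± 0.68. None of the 3 tested genes was called by edgeR or DESeq2, and none had an unadjusted edgeR p under 0.05.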

How the data were processed

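RNA was measured by sequencing of TruSeq RNA v2 libraries, a kit that does not mark strand, in 3 DKO and 3 WT samples. Per the file headers, the authors deposited 1 table of whole-number gene counts, not normalised, and 1 Cufflinks table of FPKM values per library. Trimmomatic 0.32, Cufflinks 2.2, HTSeq and GRCm38 are named in the submitters' processing notes, without their settings; the aligner and the annotation release are not given in those sources. Symbols came from the FPKM tables for 46406 of 46603 genes and positions from GENCODE vM21.

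Counts of all 6 libraries were tested, DKO against WT, with edgeR 4.0.16's quasi-likelihood F-test (R 4.3.3; TMM scaling, filterByExpr, no covariate), with Benjamini-Hochberg adjustment over 14721 genes, and an adjusted p below 0.05 was called. Standard errors are the log2 fold change divided by the root of F. FPKM values, used for levels between genes and for S100a4, were tested with limma 3.58.1 on log2(FPKM + 1) for genes with 3 or more libraries at 1 FPKM or above, after 9 genes with a failed estimate were left out. On simulated counts of 14772 genes edgeR recovered 75% of the changes of 1 and 99% of those of 2 on the log2 scale. The changed genes had a mean of at least 50 counts, and each gene varied as is typical for its level. These rates therefore do not carry over to genes that vary more, such as S100a8 and S100a9. Total counts of 18609759 to 22829411 make counting error small for all but S100a4, S100a8 and S100a9, and without molecular identifiers fragments cannot be counted as independent molecules. No 2 libraries of a group agreed within sampling noise (chi-square per degree of freedom at least 13.4).

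The members, lists and tests were chosen with earlier results of these data known. Alternatives were other scalings and filters, DESeq2 1.42.0, the replicate number as a block, a term for Xist, other FPKM pseudocounts and each library left out in turn. The genes named are the members and other S100 genes, Anxa2, Ahnak, Cacybp, called partners, Stim1, Stim2, the 2 most abundant markers of each list and the 3 nearest profiles of S100a8, S100a9 and S100a14, of which some are not reported here. Ly6g, Stfa2, Ager, Il1a, Anxa5, Anxa6, Anxa7, Flg, Flg2, Hrnr, Crnn, Rptn, Tchh, Tchhl1, Gm42674 and Xist were named after their values were seen.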

Additional observations from a re-analysis of the deposited data

How the results depend on the processing

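In edgeR, DESeq2 and limma, with other scalings, filters and pseudocounts and with each library left out in turn, S100a6, S100a8, S100a9, S100a11, S100a13, S100a14 and S100a16 kept the direction of their fold change, and S100a4 kept it in its 2 FPKM alternatives. The log2 fold change of S100a1, 0.16 with all libraries, lay between -0.0041 and 0.27 when 1 library was left out, and that of S100a10 lay between -0.091 and 0.049. Members called, 0 with all libraries, became 1 without the low-count filter (S100a14, adjusted p 0.0299), 1 with DESeq2 (S100a6) and 0 to 2 with 1 library left out. Over all alternatives the adjusted p ran from 0.00371 to 0.498 for S100a14 and from 0.0128 to 0.515 for S100a6. The genes called, 153 with all libraries, were 554 without the filter, 817 with DESeq2, 71 with the Xist term, 77 with limma at either pseudocount, 11 with limma and no filter, and 21 to 335 with 1 library left out. Without the filter, the share called over all genes was not computed, so counts from the lists have no share beside them there. Partners called, 1 with all libraries, were 0 with a mean of at least 50 counts, 2 with DESeq2, 0 with limma under each pseudocount and without its filter, and 0 to 1 with 1 library left out. Fused-type genes called, 0 with all libraries, were 1 without the filter and 1 with DESeq2. Oral keratinocyte markers called, 1 with all libraries, were 6 without the filter, 5 with DESeq2, 0 with the Xist term, 0 with limma and no filter, and 0 to 4 with 1 library left out. The counts of other S100 genes and of neutrophil markers called were 0 under every alternative run. The cause of these moves was not tested.

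The replicate numbers shared by DKO and WT are 1 and 3. Deviations from the group means correlated at 0.19 for number 1 and -0.012 for number 3 over genes, and nothing in the labels ties the numbers to a shared litter or day, so the samples share only a number. With the replicate block, edgeR called 328 of the 14721 tested genes. It called 2 of the 9 tested members (S100a14 and S100a6, both lower in DKO) and 4 of the 9 tested oral keratinocyte markers. The log2 fold change was then -0.052 for S100a1, -0.46 for S100a8 and -0.12 for S100a9.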

Other observations

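The fused-type S100 genes, which join an S100-like head to a long repeat and build the hair follicle and the cornified epithelium, lie in the same gene complex. Of 7 listed genes 3 passed the filter on low counts, and Flg and Flg2, the filaggrins, had 0 counts in all libraries. Rptn, or repetin, had 1.15, 0.611 and 0.963 CPM in DKO 1, DKO 3 and DKO 4, against 2.38, 2.91 and 5.10 CPM in WT 1, WT 2 and WT 3, so every DKO library lay below every WT library. Its log2 fold change was -1.92 ± 0.38 with an edgeR adjusted p of 0.0643, which did not pass, and DESeq2 gave 0.000756. Tchh, or trichohyalin, had 13.8, 13.5 and 13.6 CPM in DKO, against 19.7, 16.9 and 13.5 CPM in WT, a log2 fold change of -0.29 that was not called. Tchhl1 overlapped between the groups, with a log2 fold change of -0.13. Hrnr and Crnn had at most 3 counts in any library.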
